A study of Mus musculus with 11 samples.

Results

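Geriatric muscle stem cells that the sort placed in a VCAM1-negative gate were compared with those it placed in a VCAM1-low gate. The comparison takes 5 of the 11 libraries in the series, VCAM1-Neg 1, 2 and 3 and VCAM1-Low 1 and 2, chosen by their sample titles. Of 20640 gene symbols in the table, 11008 reached 1 RPKM or more in at least 2 of these 5 libraries and were tested. RPKM is the number of reads of a gene scaled by the length of the gene and by the reads of the whole library, so levels can also be set side by side between genes.

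Muscle stem cells, or satellite cells, lie between a muscle fibre and its basement membrane and are marked by the transcription factor Pax7. When they leave dormancy they turn on Myf5 and Myod1, then myogenin (Myog), fuse, and build the sarcomere from actin, myosin, troponin and the proteins of the Z-disc. VCAM1 is an adhesion protein of the immunoglobulin family on the satellite cell surface that is widely used to sort these cells.

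All mice carried Pax7-CreERT2, a Cre recombinase driven by the Pax7 locus and switched on by tamoxifen, and the Rosa-YFP reporter. Tamoxifen was given by mouth on 5 days in a row, 240 mg/kg, at 12 to 14 weeks of age, and the animals behind these 5 libraries were over 28 months old. Limb muscle was digested to mononuclear cells, and YFP+ cells outside the Sca-1, CD31 and CD45 gates (genes Ly6a, Pecam1 and Ptprc) were sorted by VCAM1 level. The label thus marks any cell in which the Pax7 locus drove Cre at the time of treatment, and its descendants. The other geriatric gate, VCAM1-High, has 3 libraries of the same genotype, treatment and age. The middle-aged group (Mid, 3 libraries, 10 to 14 months by the sample labels) has the same genotype and treatment, and its titles name no VCAM1 gate. In the series' design text the lower gates have other names, mid and low/-, and how those match the titles is unclear. No source used here says whether replicates are separate animals or pools.

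The 5 libraries held 10490 to 10882 genes at 1 RPKM or more, and their estimated depth was 21.4 to 25.04 megareads. At the lowest depth 1 read of a gene of 1 kb is 0.0467 RPKM, which limits what can be said of genes near that level. Vcam1 itself, the gene behind the gates, read 177 and 115 RPKM in VCAM1-Low 1 and 2 and 122, 70.4 and 48.6 RPKM in VCAM1-Neg 1, 2 and 3. VCAM1-Neg 1 lay above VCAM1-Low 2, so the groups overlapped, while VCAM1-Neg 1 and 2 each lay below the VCAM1-Low library of the same number and VCAM1-Neg 3 below both. The difference of -0.92 ± 0.41 (SE) on the log2(RPKM + 1) scale did not pass limma's test over all genes (adjusted p = 0.9997, and 0.905 with replicate number in the model). Because the cells were sorted on the protein, these values check the labels and are no result.

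Across all genes tested, limma called 0 genes between the gates (0% of 11008), at an adjusted p under 0.05 and a log2 fold change of at least 1. The lowest adjusted p was 0.150, and 219 genes (1.99%) had an unadjusted p under 0.05, of which 207 were higher in VCAM1-Neg (1.88%) and 12 lower (0.109%). With replicate number as a block among the 8 geriatric libraries, limma called 2 genes higher in VCAM1-Neg (0.0182%) and 0 lower (0%), with 408 genes (3.71%) at an unadjusted p under 0.05, 246 higher (2.23%) and 162 lower (1.47%). These 2 genes were Acta1 and Myl1, which encode skeletal actin and a fast myosin light chain. Samples of the same number vary together in these gates, which is why the blocked values are given beside the others.

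The libraries left out decide how many genes are called. Without VCAM1-Neg 1 and with no block, 122 genes rose (1.11%) and 0 fell (0%), and 38 of the 122 stand in the lists of muscle fibre genes described next. The blocked call of Acta1 and Myl1 ended, with 0 genes called, when VCAM1-High 2, VCAM1-Low 1, VCAM1-Low 2 or VCAM1-Neg 2 was left out, and when no filter on low values was used. Without VCAM1-High 1, VCAM1-High 3, VCAM1-Neg 1 or VCAM1-Neg 3 the blocked fit called 5, 62, 109 and 60 genes, all of them higher in VCAM1-Neg.

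The largest fold differences between the gates lay in genes of the sarcomere, the contractile unit of mature fibres. Acta1, the actin of skeletal muscle thin filaments, read 15.4 and 63.2 RPKM in VCAM1-Low 1 and 2 and 280.4, 3040.2 and 2254 RPKM in VCAM1-Neg 1, 2 and 3. Every VCAM1-Neg library lay above both VCAM1-Low libraries, by 18.2-fold in the pair numbered 1 and 48.1-fold in the pair numbered 2. Acta1 rose by 4.91 ± 0.44 (SE) on the log2(RPKM + 1) scale in the blocked fit (limma adjusted p = 0.0419), and the difference was 5.26 ± 0.90 without a block (adjusted p = 0.150). Myl1, a light chain of fast myosin, read 1.61 and 4.97 RPKM in VCAM1-Low and 33.1, 271 and 347 RPKM in VCAM1-Neg. Its groups did not overlap either, and it rose by 4.74 ± 0.45 in the blocked fit (limma adjusted p = 0.0419), against 5.23 ± 0.82 without a block (adjusted p = 0.150). Here and below, libraries stand in the order of their numbers.

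Promoter sequence is shown for these 2 genes because they are the ones called with the block. Each run below holds the 250 bases before the RefSeq start of the gene in build GRCm38.p6, written 5′ to 3′ on the strand of the gene. The deposited table has no coordinates and its processing names another build, GRCm39, so the sequence is annotation and not a measurement. The Acta1 window is chr8:123894776-123895025 and the Myl1 window is chr1:66945057-66945306, both on the minus strand. Capitals mark the E-box CAGCTG, a sequence read by Myod1 and myogenin, in both windows, and a CArG box, the sequence read by serum response factor, in the Acta1 window.
Acta1: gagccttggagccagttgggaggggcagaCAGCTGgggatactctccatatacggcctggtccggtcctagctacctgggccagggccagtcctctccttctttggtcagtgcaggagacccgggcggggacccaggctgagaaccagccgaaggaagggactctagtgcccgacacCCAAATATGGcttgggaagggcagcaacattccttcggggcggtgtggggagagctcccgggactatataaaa
Myl1: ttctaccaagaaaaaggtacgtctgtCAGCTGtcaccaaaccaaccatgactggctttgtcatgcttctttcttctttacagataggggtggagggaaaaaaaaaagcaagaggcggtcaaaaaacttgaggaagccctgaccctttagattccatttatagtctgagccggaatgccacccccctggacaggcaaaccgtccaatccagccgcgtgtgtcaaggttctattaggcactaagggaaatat
The E-box starts at base -221 of Acta1 and base -224 of Myl1, counted back from the start, and the CArG box at base -73 of Acta1. Both strands were searched. CAGCTG reads the same on both, and none of the motifs overlap in these windows.

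The same windows were searched for the 61 genes that were higher by at least 1 log2 unit in both same-number pairs and also higher in VCAM1-Neg 3 than in both VCAM1-Low libraries. The RefSeq table held 60 promoters of 47 of them. CAGCTG stood in 23 of the 60 (38.3%), against 12.0% of the 11351 promoters of genes tested and 13.0% of all 32851 promoters in the table. A CArG box stood in 7 (11.7%), against 1.28% and 1.47%. A MEF2 box, the A- and T-rich sequence read by the Mef2 family, stood in 8 (13.3%), against 1.59% and 2.92%. Since the 61 genes were picked from these values and several belong to 1 tissue program, the shares are a description, and a match is neither a bound site nor a cause.

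The troponin complex, which makes the thin filament sensitive to calcium, stood higher in VCAM1-Neg as well. Tnnc2, fast troponin C, read 6.49 and 16.0 RPKM in VCAM1-Low and 81.9, 723 and 545 RPKM in VCAM1-Neg (4.58 ± 0.48 with the block, limma adjusted p = 0.060). Tnnt3, fast troponin T, read 13.3 and 33.8 RPKM in VCAM1-Low and 129.7, 1651 and 923 RPKM in VCAM1-Neg (4.49 ± 0.57 with the block, limma adjusted p = 0.0803). In both genes the groups did not overlap, VCAM1-Neg 2 was highest and VCAM1-Neg 1 was lowest of its group. Mylpf, the phosphorylatable light chain of fast myosin, read 4.24 and 7.69 RPKM against 30.2, 286 and 234 RPKM. Neither troponin gene nor Mylpf passed the test over all genes, with or without the block.

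**Figure D1:**
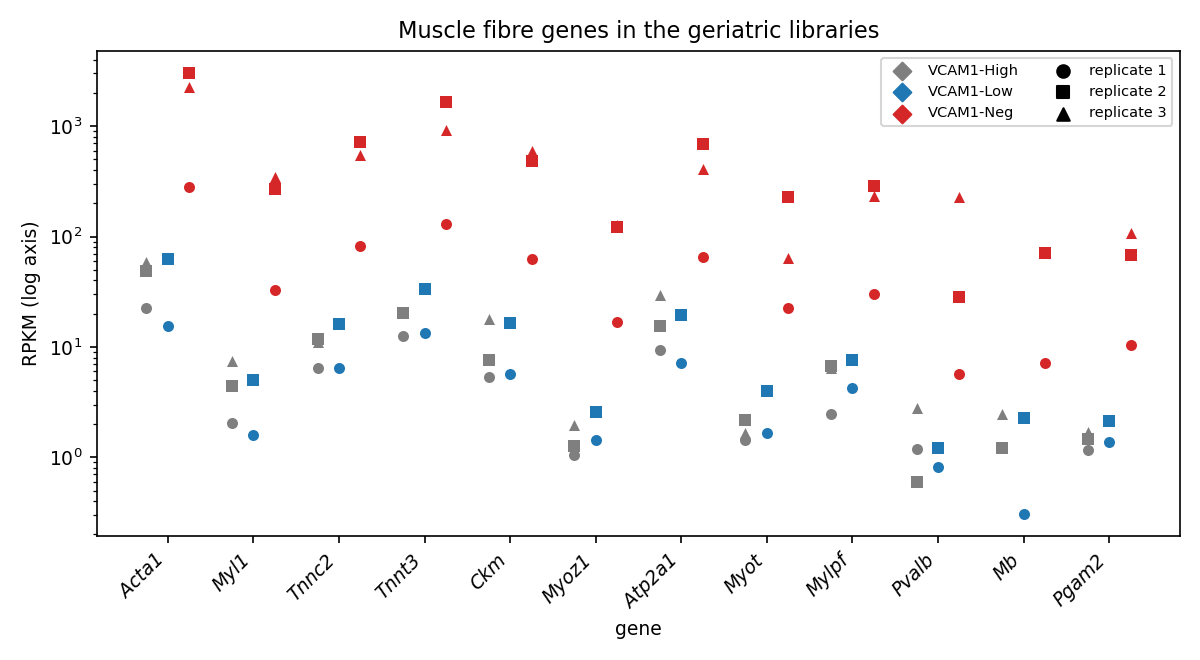
RPKM of 12 muscle fibre genes on a log axis in the 8 geriatric libraries, with colour for the gate and marker shape for the replicate number. In each gene the 3 VCAM1-Neg points lie above the 2 VCAM1-Low points, and VCAM1-Neg 1 (circle) is the lowest of its gate, as in Acta1 with 280.4 RPKM against 3040.2 and 2254.

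Z-disc genes followed. Myoz1, which ties calcineurin to the Z-disc, read 1.43 and 2.60 RPKM in VCAM1-Low and 17.0, 122 and 126 RPKM in VCAM1-Neg. Myot (myotilin, an actin bundler) read 1.65 and 3.95 RPKM in VCAM1-Low and 22.5, 226 and 63.9 RPKM in VCAM1-Neg. Tcap, a small cap on the end of titin, read 8.80 and 16.2 RPKM against 35.1, 503 and 182 RPKM. The gates did not overlap in any of the 3 genes, and limma's blocked adjusted p was 0.0817 for Myoz1 and 0.0803 for Myot.

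The myosin heavy chains, the motors of the thick filament, were at higher levels too. Myh4, the heavy chain of the fastest type of fibre, read 0.965 and 1.70 RPKM in VCAM1-Low and 7.12, 27.6 and 82.8 RPKM in VCAM1-Neg. Myh1, the heavy chain of a second fast type, read 0.749 and 0.999 RPKM against 3.13, 33.7 and 19.8 RPKM. Myh2, of the oxidative fast type, read 0.159 and 0.203 RPKM against 0.676, 6.37 and 2.38 RPKM. The slow heavy chain Myh7 did not reach the filter and read 0.115 and 0.0822 RPKM against 0.568, 0.758 and 1.94 RPKM. The 4 heavy chains given here were higher in each VCAM1-Neg library, with the fast chains Myh4 and Myh1 at the highest levels in VCAM1-Neg 2 and 3. These 4 were chosen after their values were seen. Myh1 and Myh2 were under 1 RPKM in both VCAM1-Low libraries and passed the filter only through VCAM1-Neg. None passed limma's test over all genes.

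Over the whole list of sarcomere genes, 26 of 28 members were in the table, and Tnni1 and Tnni2 were not analysed here. In 26 of these 26 every VCAM1-Neg library lay above both VCAM1-Low libraries, where 5.48% of all genes tested did so. The filter kept 24 members, some only because they were high in VCAM1-Neg. Of the 13 members at 1 RPKM or more in both VCAM1-Low libraries, 13 had VCAM1-Neg above, against 3.86% of all genes at that level. The list summed to 144 and 238 RPKM in VCAM1-Low, and to 835, 7984 and 5836 RPKM in VCAM1-Neg, which is 0.0324% and 0.0553% against 0.195%, 1.81% and 1.41% of all RPKM in those libraries. In the VCAM1-High libraries the sum was 169 to 324 RPKM and in the Mid libraries 302 to 509 RPKM, so the VCAM1-Neg libraries also lay above the 6 libraries outside the comparison. Adipocyte markers summed to 82.4 and 100.1 RPKM in VCAM1-Low and 169, 474 and 306 RPKM in VCAM1-Neg. Much of that rests on Car3, a gene of slow fibres as well as fat. Without it, a sum added after the values were seen, the other 9 markers came to 51.0 and 83.2 RPKM against 101, 201 and 88.7 RPKM. Both sums were thus higher in every VCAM1-Neg library, but without Car3 VCAM1-Neg 3 was the lowest of its gate, unlike in the sarcomere sum. Cfd, the largest of the 9, overlapped between the gates, with 54.6 RPKM in VCAM1-Neg 3 and 56.4 RPKM in VCAM1-Low 2. The part of adipocyte RNA in the result was not tested. In bulk samples like these, more cells that hold fibre RNA and more of that RNA per cell cannot be told apart.

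Genes for calcium handling and energy supply in fibres were higher in VCAM1-Neg as well. Ckm, the creatine kinase that buffers ATP in muscle, read 5.70 and 16.4 RPKM in VCAM1-Low and 62.7, 479 and 597 RPKM in VCAM1-Neg (blocked difference 4.08 ± 0.45, limma adjusted p = 0.0674). Atp2a1, the calcium pump of the fast sarcoplasmic reticulum, read 7.10 and 19.5 RPKM against 64.8, 694 and 406 RPKM. Pvalb (parvalbumin), a calcium buffer of fast fibres, read 0.823 and 1.21 RPKM against 5.67, 28.3 and 227 RPKM. The 3 genes shared the separation of the gates and the low place of VCAM1-Neg 1, while Pvalb was higher in VCAM1-Neg 3 than in VCAM1-Neg 2 by 2.96 log2 units.

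Mb (myoglobin, the oxygen store of muscle) read 0.307 and 2.28 RPKM in VCAM1-Low and 7.10, 71.5 and 71.1 RPKM in VCAM1-Neg. Pgam2, the muscle form of a glycolytic mutase, read 1.38 and 2.15 RPKM against 10.5, 67.9 and 106.5 RPKM. Eno3, the muscle enolase, read 7.57 and 8.65 RPKM against 22.5, 181 and 277 RPKM. The gates did not overlap in these 3 genes. Aldoa, an aldolase that most cells use, overlapped between the gates, with 780.1 and 514 RPKM in VCAM1-Low and 756, 1795 and 1819.5 RPKM in VCAM1-Neg. All 24 members of this list were in the table, and in 18 the VCAM1-Neg libraries lay above both VCAM1-Low libraries and in 0 below. Among the 11 members at 1 RPKM or more in both VCAM1-Low libraries the count was 8 above and 0 below (3.86% and 5.46% of all genes at that level).

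Reading the same-number pairs side by side gave the same picture one pair at a time. From VCAM1-Low 1 to VCAM1-Neg 1, 146 genes (1.33%) were higher by at least 1 log2 unit and 6 (0.0545%) lower. From VCAM1-Low 2 to VCAM1-Neg 2, 233 genes (2.12%) were higher and 6 (0.0545%) lower. Both pairs were higher by that much in 69 genes (0.627%) and lower in 0 (0%), and VCAM1-Neg 3 lay above both VCAM1-Low libraries in 61 of the 69 (0.554% of all genes). At 0.5 log2 units both pairs were higher in 215 genes (1.95%) and lower in 21 (0.191%). Of the 69 genes, 26 stand in the 2 fibre lists. In 47 of the 69, all VCAM1-High libraries lay below all VCAM1-Neg libraries. The 69 were picked for higher levels in VCAM1-Neg 1 and 2, which favours this, and the share over all genes was not counted. The 47 are thus a description only.

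The pairs share no library, so their differences can be set against each other across genes, as a description. Over all 11008 genes Pearson's r was 0.425 and Spearman's rho 0.105. Over the 48 tested members of the fibre lists they were 0.835 and 0.859, and over the 10960 other genes 0.316 and 0.0956. Genes are not independent replicates, and members of the fibre lists share 1 tissue program. The pair numbered 2 had the larger difference in 48 of 48 fibre genes and in 56 of the 69 genes above.

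**Figure D2:**
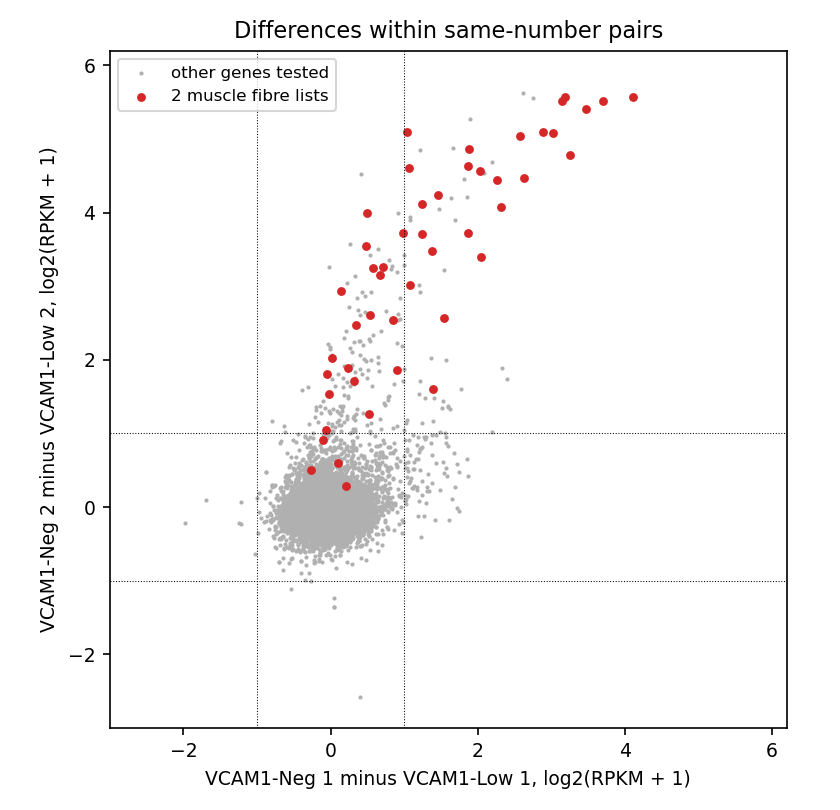
Difference of VCAM1-Neg 1 from VCAM1-Low 1 (horizontal axis) and of VCAM1-Neg 2 from VCAM1-Low 2 (vertical axis) in log2(RPKM + 1), 1 point per tested gene, with the 48 tested members of the 2 fibre lists in red and dotted lines at -1 and 1. The upper right field holds 69 genes and the lower left field 0.

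Other genes among the 61 are known from fibres but stand outside the lists. Smpx, a small protein of the costamere, read 0.132 and 0.472 RPKM in VCAM1-Low and 3.80, 33.2 and 15.6 RPKM in VCAM1-Neg. Hspb7, a small heat shock protein of heart and skeletal muscle, read 0.955 and 3.34 RPKM against 12.2, 204 and 23.5 RPKM. Car3, the carbonic anhydrase abundant in slow fibres and fat, read 31.4 and 16.9 RPKM against 67.3, 273.5 and 217 RPKM. The gates did not overlap in these 3 genes, and none passed limma's test, with blocked adjusted p from 0.174 for Hspb7 and Smpx to 0.999 for Car3.

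VCAM1-Neg 2 and VCAM1-Neg 3 differed in the levels of some genes that were higher in VCAM1-Neg. Among the 161 genes whose VCAM1-Neg libraries all lay above VCAM1-Low with a log2 fold change of at least 1, VCAM1-Neg 1 was the lowest of its gate in 145. Between the other two libraries, VCAM1-Neg 2 was higher in 100 genes, by at least 2 log2 units in 9, and VCAM1-Neg 3 was higher by at least 2 log2 units in 6. Of the genes set side by side here, Sln, Hspb7, Actc1, Nmrk2, Ddit4l and Myog were picked from these 15 after their values were seen. Ankrd2, Csrp3, Pvalb, Mymk and Trim63 were named by the rule for the whole comparison, and Trim63 is not among the 161 genes. A single library per side allows no test. The 161 are not all fibre genes, since Lyz2 and Col1a2 are among them. The share of such leads over all genes tested was not counted.

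The largest leads of VCAM1-Neg 2 over VCAM1-Neg 3 were in Ankrd2, Csrp3, Sln and Hspb7. Ankrd2, a stretch-responsive ankyrin repeat protein, read 183 RPKM in VCAM1-Neg 2 and 6.26 RPKM in VCAM1-Neg 3, and 6.39 RPKM in VCAM1-Neg 1, with 0.209 and 2.73 RPKM in VCAM1-Low. Csrp3, the muscle LIM protein, read 79.7 RPKM against 4.87 RPKM, with 5.74 RPKM in VCAM1-Neg 1. Sln (sarcolipin), an inhibitor of the calcium pump, read 98.5 RPKM against 8.36 RPKM, with 6.94 RPKM in VCAM1-Neg 1. In these 3 genes VCAM1-Neg 3 lay close to VCAM1-Neg 1, so the high level belongs to 1 library. Trim63, the ubiquitin ligase MuRF1 of muscle atrophy, read 0.959 and 2.86 RPKM in VCAM1-Low and 1.62, 88.3 and 10.1 RPKM in VCAM1-Neg, where VCAM1-Neg 1 lay between the VCAM1-Low libraries.

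The largest leads of VCAM1-Neg 3 over VCAM1-Neg 2 were in Actc1 and Pvalb, and Nmrk2, Ddit4l, Myog and Mymk also led by at least 2 log2 units. Actc1, the cardiac actin that newly formed muscle also expresses, read 35.7 RPKM in VCAM1-Neg 3 and 3.61 RPKM in VCAM1-Neg 2, with 2.39 RPKM in VCAM1-Neg 1 and 0.127 and 0.796 RPKM in VCAM1-Low. Mymk (myomaker), the membrane protein of myoblast fusion, read 12.1 RPKM against 2.20 RPKM, with 1.92 RPKM in VCAM1-Neg 1 and 0.238 and 0.456 RPKM in VCAM1-Low. Actc1 and Mymk were not low in all the other libraries. Mid 1 read 63.7 RPKM of Actc1 and 47.6 RPKM of Mymk, both above VCAM1-Neg 3, and VCAM1-High 3 read 8.71 and 7.25 RPKM. Pvalb stayed at 14.8 RPKM or below in all libraries other than VCAM1-Neg 2 and 3.

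**Figure D3:**
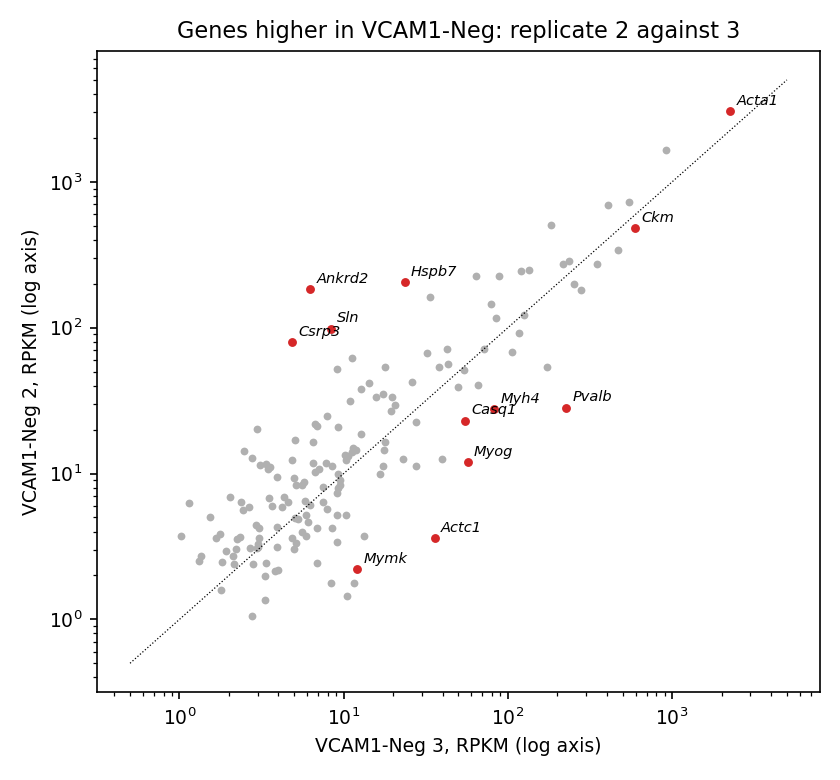
RPKM in VCAM1-Neg 2 (vertical) against VCAM1-Neg 3 (horizontal), both log axes, for the 161 genes higher in all VCAM1-Neg than in both VCAM1-Low libraries with a log2 fold change of at least 1, with named genes in red and the line of equal level dotted. Ankrd2 (183 against 6.26 RPKM) lies far above the line and Pvalb (28.3 against 227 RPKM) far below it, while Acta1 and Ckm lie near it.

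The early regulators of myogenic commitment overlapped between the gates. Myod1, the commitment factor, read 618 and 653 RPKM in VCAM1-Low and 664, 622 and 725 RPKM in VCAM1-Neg. The gates overlapped, and the difference was 0.07 ± 0.28 (SE) on the log2(RPKM + 1) scale (limma adjusted p = 0.9997). Myf5, an earlier factor of the same family, read 124 and 46.0 RPKM against 106.0, 26.7 and 56.6 RPKM. It followed the replicate number more than the gate, with both number-2 libraries lowest. Pax7 read 7.36 and 1.97 RPKM against 4.0, 1.71 and 3.46 RPKM, and here too the gates overlapped.

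Of the later factors, 3 are given here that stood higher in every VCAM1-Neg library, though none passed limma's test. Myog (myogenin) read 5.86 and 3.98 RPKM in VCAM1-Low and 19.7, 11.9 and 57.0 RPKM in VCAM1-Neg. Myf6, the factor of the family found in mature fibres, read 2.29 and 2.02 RPKM against 3.77, 31.3 and 11 RPKM. Mef2c, a MADS-box factor that works with them, read 0.147 and 0.538 RPKM against 1.30, 4.65 and 6.08 RPKM. It passed the filter only through VCAM1-Neg, and Myog was added after its values were seen. The gates did not overlap in any of the 3 genes, and limma's adjusted p was 0.9997, 0.654 and 0.764 without a block and 0.999, 0.911 and 0.331 with it. In VCAM1-High 3 Myog read 59.6 RPKM, and in Mid 1 it read 390.3 RPKM, so its level in VCAM1-Neg is not particular to this gate.

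Of the 18 members of the commitment list 17 were tested. Among these, 6 had all VCAM1-Neg libraries above VCAM1-Low and 0 below, where 5.48% of all genes tested lay above and 5.05% below. Some, such as Actc1, were under 1 RPKM in both VCAM1-Low libraries and passed the filter only through VCAM1-Neg. Of the 13 members at 1 RPKM or more in both VCAM1-Low libraries, 2 lay above and 0 below (3.86% and 5.46% of all genes at that level). The commitment list's median over the 17 tested was 0.37 log2 units, against 0.02 over all genes tested, with members kept through VCAM1-Neg included. In the fusion list, Tmem182 (a muscle membrane protein) and Lmod3 (leiomodin, an actin nucleator) lay above with Mymk. Tmem182 read 0.0846 and 0.265 RPKM in VCAM1-Low and 1.05, 6.36 and 4.60 RPKM in VCAM1-Neg. Cdon, a cadherin-linked receptor of early differentiation, was the 1 member below, with 10.5 and 8.45 RPKM against 7.71, 5.78 and 6.31 RPKM. The fusion list's median over 12 tested members was 0.11. Mymk, Tmem182 and Lmod3 were under 1 RPKM in both VCAM1-Low libraries and passed the filter only through VCAM1-Neg. Of the 7 fusion genes at 1 RPKM or more in both, 0 lay above and 1 below (3.86% and 5.46% of all genes at that level).

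Surface markers of the stem cell showed small differences at most. Cd63, a tetraspanin of lysosomes and the cell surface, read 2252 and 2167 RPKM in VCAM1-Low and 1692, 1988 and 1373 RPKM in VCAM1-Neg. Its gates did not overlap, and the difference was -0.41 ± 0.31 (SE) without a block and -0.19 ± 0.17 with it (limma adjusted p = 0.9997 and 0.999). Cd200, an immune-inhibitory glycoprotein, read 326 and 173 RPKM against 305 and 122 RPKM in the paired libraries and 138 RPKM in VCAM1-Neg 3. The paired libraries differed by -0.09 and -0.50 log2 units. The series' title names CD63 and CD200, and these genes may have been chosen on the same libraries. The 16 surface markers, Vcam1 among them, summed to 4960.3 and 4432 RPKM in VCAM1-Low and 4159.8, 3767 and 3742.5 RPKM in VCAM1-Neg. Cd63 alone, with the values above, holds a large part of these sums. Of the 15 tested, 10 were lower in both pairs and 0 higher in both, where 32.1% of all genes tested were lower and 20.5% higher in both pairs. Vcam1 is 1 of the 10, and because the cells were sorted on its protein its place there is no result. Their median difference was 0.02 without a block and -0.15 with it, against 0.02 and -0.01 over all genes. It was -0.09 in the pair numbered 1, -0.23 in the pair numbered 2 and 0.24 for VCAM1-Neg 3 against the mean of VCAM1-Low. The same medians over all genes were -0.03, -0.03 and 0.10, so the lower levels are small and VCAM1-Neg 3 did not share them.

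Chemokine genes and feedback targets of the NF-kappaB pathway, which drives inflammatory transcription, were lower in VCAM1-Neg, most of all in VCAM1-Neg 3. Ccl2, which attracts monocytes, read 727 and 712 RPKM in VCAM1-Low and 525, 620.8 and 167 RPKM in VCAM1-Neg. Cxcl1, which attracts neutrophils, read 1741 and 1804 RPKM against 1500.2, 1464 and 505 RPKM. Ccl7, a relative of Ccl2, read 883 and 652 RPKM against 594, 530.5 and 262 RPKM. The gates did not overlap in these 3 genes, with differences of -0.92 ± 0.59, -0.77 ± 0.46 and -0.80 ± 0.44 (SE), and none passed limma's test (adjusted p = 0.9997, and 0.999 with the block).

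Cxcl2, another neutrophil attractant, read 65.3 and 69.5 RPKM in VCAM1-Low and 48.1, 56.7 and 27.4 RPKM in VCAM1-Neg. Il6, a cytokine that acts on many cells, read 150.3 and 161 RPKM against 148, 117 and 39.1 RPKM. Cxcl10, a chemokine of the interferon response, read 143 and 210.3 RPKM against 114, 156 and 43.1 RPKM, and its gates overlapped. In each of the 3 genes VCAM1-Neg 3 was the lowest of the 5 libraries. For Ccl2 the number-3 library was low in the VCAM1-High gate as well, at 255 RPKM against 880.1 and 869 RPKM in VCAM1-High 1 and 2.

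All 21 members of this list were tested, and 9 lay below VCAM1-Low in every VCAM1-Neg library (5.05% of all genes did) and 1 above. Both pairs were lower in 15 and higher in 2 (32.1% and 20.5% of all genes). The median of the list was -0.51 without a block and -0.23 with it. Its median was -0.19 in the pair numbered 1, -0.20 in the pair numbered 2 and -1.19 for VCAM1-Neg 3 against the mean of VCAM1-Low, where the same medians over all genes were -0.03, -0.03 and 0.10. The 2 paired differences are thus small and the low group mean rests largely on VCAM1-Neg 3, which has no VCAM1-Low partner. Ccl19, a chemokine of lymphoid tissue, read 40.5 and 25.3 RPKM against 24.5, 14.7 and 22.9 RPKM, and its values are shared with a near-identical copy in the table, so the gene they come from is uncertain.

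**Figure D4:**
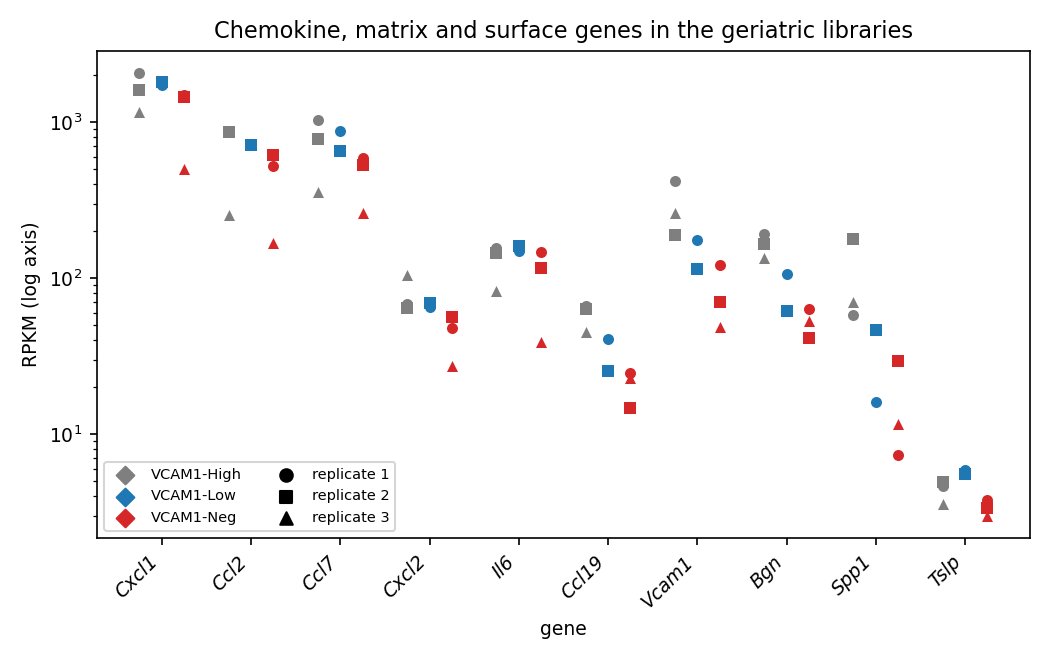
RPKM of 10 chemokine, matrix and surface genes on a log axis in the 8 geriatric libraries, with colour for the gate and marker shape for the replicate number. VCAM1-Neg 3 (triangle) is the lowest library for Ccl2, at 167 RPKM, and for Cxcl1, at 505 RPKM.

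Genes lower in both pairs by at least 0.5 log2 units were few, and no gene met the rule for naming a fall. Bgn (biglycan), a small matrix proteoglycan, read 107 and 61.3 RPKM in VCAM1-Low and 63.2, 41.3 and 53.1 RPKM in VCAM1-Neg. Spp1 (osteopontin), a secreted phosphoprotein, read 16.0 and 46.7 RPKM against 7.32, 29.5 and 11.6 RPKM. Tslp, the cytokine thymic stromal lymphopoietin, read 5.85 and 5.53 RPKM against 3.75, 3.34 and 2.99 RPKM. The gates overlapped for Bgn and Spp1 and did not for Tslp. In all 3 genes VCAM1-Neg 1 and 2 lay below the VCAM1-Low library of the same number. The VCAM1-High libraries read 135 to 191 RPKM of Bgn and 57.9 to 177 RPKM of Spp1, above every VCAM1-Low and VCAM1-Neg library.

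Some genes followed the replicate number and not the gate. Hspa1a, an inducible Hsp70 chaperone with a near-identical copy (Hspa1b) that can share its reads, read 6135 and 649 RPKM in VCAM1-Low 1 and 2 and 7325, 665 and 244 RPKM in VCAM1-Neg 1, 2 and 3. Libraries of the same number lay close together, and number 1 was far above number 2 in both gates. Of 16 heat shock genes tested, 0 lay above and 0 below in every VCAM1-Neg library (5.48% and 5.05% of all genes tested). The list summed to 19032 and 6432 RPKM in VCAM1-Low and 20855 and 6530.0 RPKM in VCAM1-Neg 1 and 2, with 5605 RPKM in VCAM1-Neg 3. VCAM1-High 1 also held the most of its gate, at 11302 RPKM.

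Markers of other cell types were present at low levels and moved in part with the gates. Pecam1 (CD31) read 4.10 and 8.95 RPKM in VCAM1-Low and 10.8, 15.7 and 2.23 RPKM in VCAM1-Neg. Ly6a (Sca-1) read 10.5 and 18.2 RPKM against 26.8, 36.2 and 14.3 RPKM, and Ptprc (CD45) stayed below the filter at 0.371 and 0.166 RPKM against 0.197, 0.317 and 0.754 RPKM. Pecam1 and Ly6a were higher in VCAM1-Neg in both pairs and lowest or near lowest in VCAM1-Neg 3, so the gates overlapped. All 3 stand for proteins the sort excluded.

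The endothelial list summed to 218 and 279.6 RPKM in VCAM1-Low and 326, 375 and 219.8 RPKM in VCAM1-Neg. Of its 16 tested members 12 were higher in both pairs, as 20.5% of all genes tested were, and 0 separated the gates. The macrophage list summed to 57.2 and 74.1 RPKM against 112, 121 and 348 RPKM. Of its 12 tested members 6 lay above in every VCAM1-Neg library and 0 below (5.48% and 5.05% of all genes tested). Of the 9 at 1 RPKM or more in both VCAM1-Low libraries 5 lay above and 0 below (3.86% and 5.46% of all genes at that level). C1qb, a complement subunit made by macrophages, read 2.48 and 4.70 RPKM against 9.35, 9.99 and 9.18 RPKM. VCAM1-High 3, a library outside the comparison, held 1293 RPKM of macrophage and 523 RPKM of adipocyte markers, more than any of the 5 libraries compared.

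Fibro-adipogenic progenitor markers, of the mesenchymal cells between fibres, summed to 1704 and 1183 RPKM in VCAM1-Low and 1985, 1198 and 2119 RPKM in VCAM1-Neg. Most of that sum came from Gsn and Dcn. Of the 11 tested members 5 lay above VCAM1-Low in every VCAM1-Neg library and 0 below (5.48% and 5.05% of all genes tested). Of the 9 at 1 RPKM or more in both VCAM1-Low libraries 3 lay above and 0 below (3.86% and 5.46% of all genes at that level). With untested members counted, 8 of the 17 lay above and 1 below. Smoc2, a matrix protein of those cells, read 2.06 and 6.59 RPKM against 8.13, 9.94 and 16.6 RPKM. Erythroid markers summed to 524 and 651 RPKM against 346, 650.5 and 194 RPKM. Thus the macrophage sum, like the adipocyte sum, was higher in every VCAM1-Neg library, while endothelial, erythroid and progenitor sums overlapped.

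Neutrophil markers summed to 9.1 and 9.8 RPKM in VCAM1-Low and 2.9, 5.3 and 21.0 RPKM in VCAM1-Neg, and Mpo, an enzyme of their granules, was the 1 marker of these cell lists at 0 in all 5 libraries. Lymphocyte markers summed to 6.4 to 6.9 RPKM against 7.5 to 10.5 RPKM, and 1 of the 12 in the table reached the filter. Tenocyte markers summed to 609 to 1050.3 RPKM against 497 to 914.5 RPKM, pericyte and smooth muscle markers to 513 to 578 RPKM against 591 to 910.2 RPKM, and Schwann and glial markers to 152 to 239.7 RPKM against 145 to 227 RPKM. The pericyte and smooth muscle sum and the low lymphocyte sum were thus higher in every VCAM1-Neg library, while the neutrophil, tenocyte and Schwann sums overlapped. Most of the lymphocyte sum was Cd79a, at 6.71 and 6.02 RPKM against 6.83, 6.31 and 7.92 RPKM. Its gates overlapped, and the other lymphocyte markers stayed below the filter. Most of the pericyte and smooth muscle sum was Des (desmin), at 462 and 436 RPKM against 426, 683 and 765 RPKM. Of that list's 11 tested members 0 lay above and 0 below (5.48% and 5.05% of all genes tested). Most of the tenocyte sum was Chodl, at 1015 and 580 RPKM against 856, 449 and 864 RPKM. Of 6 tenocyte markers tested 3 lay above in every VCAM1-Neg library and 0 below. Of the 4 at 1 RPKM or more in both VCAM1-Low libraries 1 did (3.86% of all genes at that level). Thbs4, a matrix protein of tendon, read 2.27 and 4.27 RPKM against 9.13, 12.3 and 10.3 RPKM, and was higher in both pairs by at least 1 log2 unit. The part these other cells have in the differences between the gates was not tested.

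**Figure D5:**
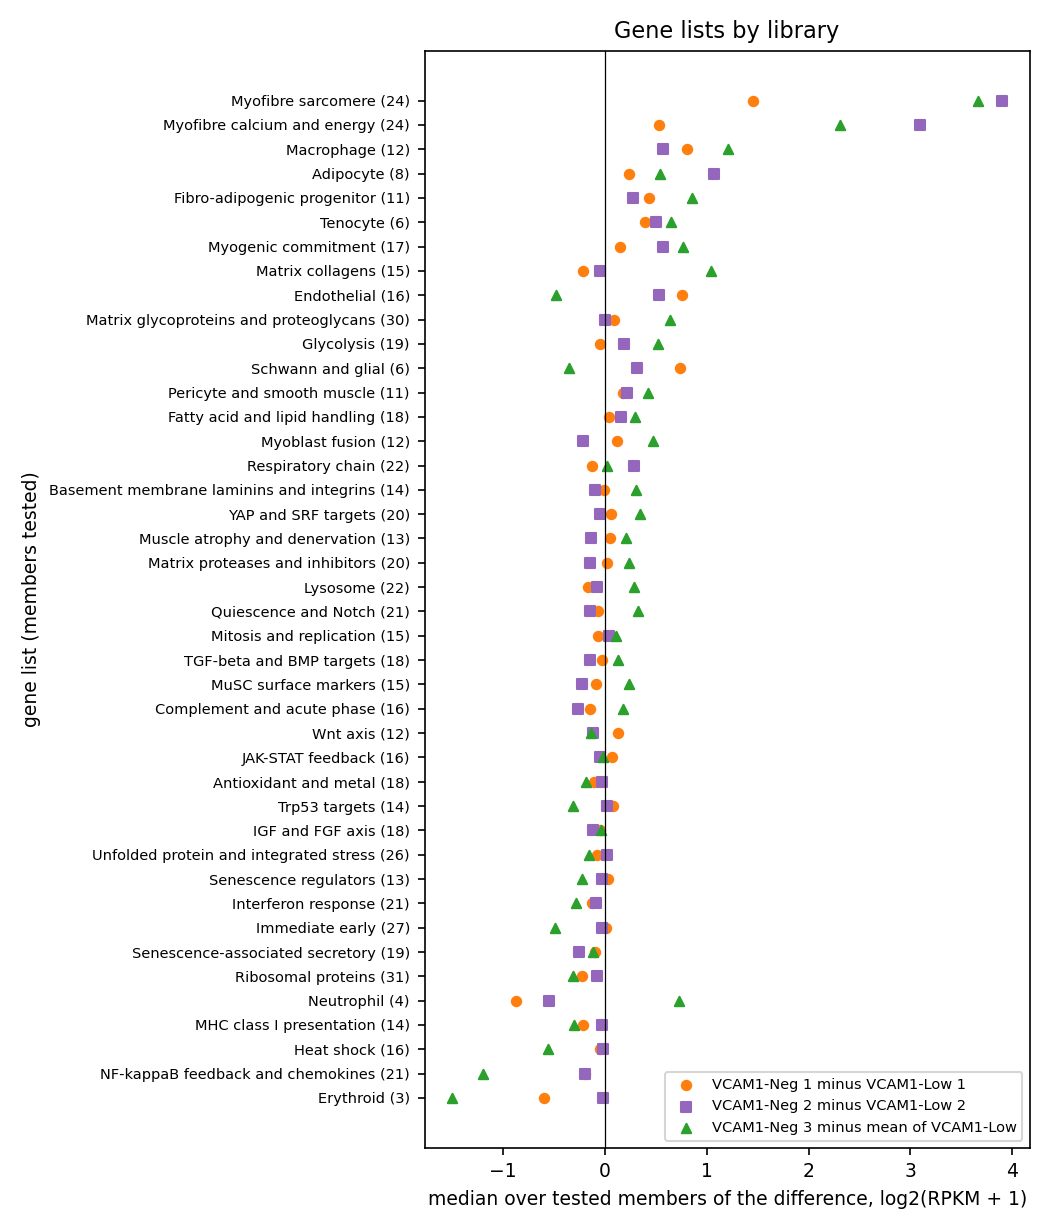
Median difference over the tested members of each gene list with at least 3 of them, in log2(RPKM + 1), for VCAM1-Neg 1 against VCAM1-Low 1 (circle), VCAM1-Neg 2 against VCAM1-Low 2 (square) and VCAM1-Neg 3 against the mean of VCAM1-Low (triangle). The sarcomere list stands highest, and for the NF-kappaB and chemokine list the triangle at -1.19 lies far left of the circle and square at -0.19 and -0.20; members low in VCAM1-Low were tested only where VCAM1-Neg was high.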

How the data were processed

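Libraries were made from total RNA of the sorted cells with a SMART-Seq kit for small inputs and read from both ends, per the labels' protocols. The authors deposited RPKM values for 20640 gene symbols, per the file headers and values, and no counts. Per the submitters' processing notes the tools were STAR 2.7.5b, Bowtie2 2.1.0, SAMtools 0.1.19 and cutadapt 3.1 and the build was GRCm39. For the counting tool, annotation and gene lengths the sources used here give nothing, so gene lengths and the treatment of near-identical copies could shift levels.

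Depth was estimated from RPKM of 0.1 or less in 3428 single-transcript genes. A share of 64.6% to 73.2% of these values came within 0.1 of a whole number of reads (20.0% would by chance). The transcript lengths are from GENCODE, so depths are estimates.

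The fit used limma 3.58.1 (R 4.3.3) on log2(RPKM + 1), a variance trend and Benjamini-Hochberg adjustment over the 11008 genes that reached 1 RPKM in 2 or more of the 5 libraries. One model with 4 group means took all 11 libraries, so all groups share 1 estimate of spread. Fold changes on this scale understate low genes. The scripts were tested on simulated data. The labels do not tie replicates to different animals. The p-values thus reflect only how far these samples spread, which may be technical.

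Replicate numbers come from the sample titles. In the 8 geriatric libraries, deviations from the gate means correlated at 0.371 to 0.582 over 7 same-number pairs and at -0.582 to 0.104 over 14 other pairs. The numbers were therefore taken to pair the samples, and the blocked fit adds a term per number. The contrast with the 14 other pairs is partly built in. With 2 libraries in VCAM1-Low their deviations are exact opposites, and centring within a gate lowers the values of unlike numbers. The 7 and 14 values are thus not separate observations, and the pairing remains an assumption.

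Genes named are Vcam1, Cd63, Cd200, Pax7, Ptprc, Pecam1 and Ly6a, then up to 12 largest rises and 12 largest falls with log2 fold change of at least 1, no overlap and a higher mean of at least 5 RPKM (called genes first), then up to 4 members of each of 43 lists by smallest unadjusted p. Of the named genes, Tcap, Myh4, Myh1, Myh2, Myh7, Myog, Actc1, Myod1, Myf5, Smpx, Hspb7, Sln, Nmrk2, Ddit4l, Il6, Cxcl10, Spp1, Tslp, Hspa1a and Mpo were added after their values were seen. The comparison, the lists and the tests were chosen with earlier results of these data known. Alternatives covered the pseudocount, filter, scaling, libraries in the fit, block, trend, weights and each library left out.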

Additional observations from a re-analysis of the deposited data

How the results depend on the processing

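The count of 0 genes without a block also held with a pseudocount of 0.1, no filter, the other filters, both rescalings, 8 or only 5 libraries, no trend and array weights. Leaving out 1 library gave 0 to 122 genes, the 122 without VCAM1-Neg replicate 1. With the replicate block the count was 2 in the 8 geriatric libraries, 4 in 11 libraries and 83 in the 5 libraries. Within the 8, it was 0 without a filter, 9 at a mean of at least 5 RPKM, 15 with a pseudocount of 0.1, 4 after scaling to an equal sum and 2 by the median ratio. Leaving out 1 library from that blocked fit gave 0 to 109 genes (5 without VCAM1-High 1, 62 without VCAM1-High 3, 109 without VCAM1-Neg 1, 60 without VCAM1-Neg 3). The 61 genes higher in both pairs and VCAM1-Neg 3 became 136 with a pseudocount of 0.1, 154 at 0.5 log2 units and 18 at 2, while the genes lower became 11 at 0.5. Of 60 named genes under 37 alternatives, 6 changed sign, none of them past the threshold, and the cause was not tested. Over single omissions with and without the block, Pax7 ran from -1.09 to 0.40 (0.40 and 0.043 without VCAM1-Low 1), Myf5 from -1.17 to 0.24 (0.24 and 0.04) and Ly6a from -0.37 to 1.13 (-0.37 and -0.020). Pecam1 ran from -0.57 to 0.98 (-0.21, -0.21, -0.57 and -0.36, and -0.12 with the block in 11 libraries) and C1qb from -0.93 to 1.59 (-0.93 and -0.42). Hspa1a ran from -2.53 to 0.71 (0.11, 0.14, 0.29, 0.10 and 0.71, and 0.14 with the block in the 5 libraries). With 2 VCAM1-Low libraries the spread of that gate is poorly known, and an omitted VCAM1-Low library leaves 1 that is assumed to vary like the other groups. RPKM keeps no counts, so counting error at low levels was not modelled.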

Other observations

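Ribosomal protein genes tended to lie slightly lower in VCAM1-Neg. Of 31 tested, 12 lay below both VCAM1-Low libraries in every VCAM1-Neg library and 0 above, and 20 were lower in both pairs and 1 higher. Over all genes tested 5.05% lay below and 5.48% above, and 32.1% were lower and 20.5% higher in both pairs. Rpl15, a protein of the large subunit, read 69.1 and 61.6 RPKM in VCAM1-Low and 55.4, 53.6 and 51.4 RPKM in VCAM1-Neg. The median difference was -0.18 log2 units (-0.08 with the block), against 0.02 over all genes. In the list of antioxidant and metal-binding genes 6 of 18 lay below and 1 above (5.05% and 5.48% of all genes tested), with a median of -0.04, and no member passed limma's test over all genes.

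Collagen genes varied widely among the libraries of each gate. The list summed to 136 and 74.3 RPKM in VCAM1-Low and 120.2, 69.7 and 219 RPKM in VCAM1-Neg. In both number-2 libraries it was lowest, and VCAM1-High 3 and the 3 Mid libraries held 604 and 661 to 729 RPKM. Of the amino acid stress response, Asns, which makes asparagine, read 1.47 and 1.88 RPKM in VCAM1-Low and 2.90, 3.67 and 4.01 RPKM in VCAM1-Neg. Sesn2, a stress-induced inhibitor of mTORC1, read 11.3 and 11.2 RPKM against 13.9, 14.2 and 18.6 RPKM. Of the 26 genes of that list 3 lay above in every VCAM1-Neg library and 0 below (5.48% and 5.05% of all genes tested).

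Senescence regulators did not separate the gates in 1 direction, while more secretory genes lay below than above. Of 13 senescence regulators tested, 1 lay above and 2 below, where 5.48% and 5.05% of all genes tested did. Of 19 secretory genes tested 1 lay above and 5 below, among them Ccl2, Ccl7, Cxcl1 and Il6 of the chemokine list. Both pairs were lower in 12 of the 19 and higher in 4 (32.1% and 20.5% of all genes tested). Of 26 mitosis and replication genes 15 were tested, with a median of 0.03.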
